A study of Homo sapiens with 6 samples.

Results

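The circadian clock genes of AGS cells, an established line from a human gastric adenocarcinoma, were examined in total RNA sequencing libraries of cells with and without indomethacin, a cyclooxygenase inhibitor of the anti-inflammatory class. The 10 genes were CLOCK, PER1, PER2, PER3, CRY1, CRY2, NR1D1, NR1D2, BHLHE40 and NFIL3, taken by name from the 60604 genes read, and all 10 were among the 17200 genes with enough counts to be tested. The 3 indomethacin libraries came from cells kept for 24 h with 0.5 mM of the drug, and the 3 control libraries from cells labelled as given 0 mM. The labels give no collection time and no vehicle for the control cells and do not say that the samples of a group were separate cultures. P-values here rest on the spread among 3 samples a group, and that spread may be technical only. Clock transcripts vary over the day, so a difference in collection time and a difference in treatment cannot be told apart here.

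The mammalian clock is a feedback loop of transcription factors. CLOCK, or its relative NPAS2, pairs with BMAL1 and activates genes through E-box elements, among them the period genes PER1 to PER3, the cryptochromes CRY1 and CRY2, NR1D1, NR1D2 and BHLHE40. Period and cryptochrome proteins then repress CLOCK and BMAL1, the REV-ERB receptors encoded by NR1D1 and NR1D2 repress BMAL1 through ROR elements, BHLHE40 competes at E-boxes, and NFIL3 represses through D-boxes. Several of these genes, PER1, BHLHE40 and NFIL3 among them, are also known to respond acutely to hormones, serum or stress in many cell types. Gastric epithelium is among the tissues with a local clock.

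Total counts lay between 17535435 and 20094302 in the indomethacin libraries and between 20983189 and 23221077 in the control libraries. The 6 epithelial marker genes summed to 2907 to 3214 CPM (counts scaled to a common library size, adjusted between libraries by the TMM method) in indomethacin and 3237 to 3729 CPM in control libraries, and all 6 were detected. They did not move together. CDH1 was 17.9 ± 2.14 CPM in indomethacin and 6.28 ± 1.54 CPM in control libraries (SD, n = 3), 2.84-fold higher, and CLDN4 was 3.25-fold higher, while EPCAM was at 0.624 and KRT8 at 0.685 of the control level (all 4 with an edgeR adjusted p under 0.05), and KRT18 and KRT19 did not pass. The 4 leukocyte markers summed to 118 to 125 CPM in indomethacin and 599 to 1366 CPM in control libraries, nearly all of it LYZ, a lysozyme gene that gastric glands also express, while the leukocyte antigen PTPRC had 5 counts over the indomethacin and 15 over the control libraries, CD3E 1 and 5, and CD68 7 and 2. The 4 fibroblast markers summed to 9.37 to 11.3 CPM in indomethacin and 6.52 to 8.62 CPM in control libraries, and within them COL1A1 had 582 counts over the indomethacin and 325 over the control libraries and PDGFRB 6 and 163. The 3 endothelial markers summed to 0.240 to 0.523 CPM in indomethacin and 0.375 to 0.490 CPM in control libraries. The part of these marker differences in the clock gene results was not tested.

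The start regions of 4 of the genes are shown here because the clock proteins are known to act through short elements near gene starts. They are those of NR1D1, with the highest fold change of the 10, of CLOCK, with the lowest, and of PER1 and BHLHE40, the genes with an E-box in this window that had the higher fold changes. Each sequence runs 5′ to 3′ on the gene's strand from 250 bases before to 50 bases after the RefSeq start, on build GRCh38.p14, and capitals mark matches to the elements searched. The windows are chr17:40100540-40100839 (minus strand) for NR1D1, chr17:8152355-8152654 (minus) for PER1, chr3:4979187-4979486 (plus) for BHLHE40 and chr4:55545883-55546182 (minus) for the second of 2 CLOCK starts. The deposited model of PER1 extends past its window, to base 8156506.
NR1D1: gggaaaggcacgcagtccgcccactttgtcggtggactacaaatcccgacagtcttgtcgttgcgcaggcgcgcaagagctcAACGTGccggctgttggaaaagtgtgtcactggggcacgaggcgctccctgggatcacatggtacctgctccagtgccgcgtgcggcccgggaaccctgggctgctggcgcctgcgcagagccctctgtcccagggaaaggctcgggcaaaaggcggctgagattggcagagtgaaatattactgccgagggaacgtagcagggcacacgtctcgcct
PER1: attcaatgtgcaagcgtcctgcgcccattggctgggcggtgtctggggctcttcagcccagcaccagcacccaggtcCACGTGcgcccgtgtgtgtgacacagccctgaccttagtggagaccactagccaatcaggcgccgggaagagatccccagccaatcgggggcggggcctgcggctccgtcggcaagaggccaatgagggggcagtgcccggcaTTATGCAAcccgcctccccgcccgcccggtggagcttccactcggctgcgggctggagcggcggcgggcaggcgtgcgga
BHLHE40: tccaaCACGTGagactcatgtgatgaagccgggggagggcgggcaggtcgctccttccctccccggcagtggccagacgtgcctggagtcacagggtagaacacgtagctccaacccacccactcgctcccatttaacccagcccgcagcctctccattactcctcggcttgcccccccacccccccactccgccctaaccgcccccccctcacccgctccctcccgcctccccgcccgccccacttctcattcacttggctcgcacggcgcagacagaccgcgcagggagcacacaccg
CLOCK: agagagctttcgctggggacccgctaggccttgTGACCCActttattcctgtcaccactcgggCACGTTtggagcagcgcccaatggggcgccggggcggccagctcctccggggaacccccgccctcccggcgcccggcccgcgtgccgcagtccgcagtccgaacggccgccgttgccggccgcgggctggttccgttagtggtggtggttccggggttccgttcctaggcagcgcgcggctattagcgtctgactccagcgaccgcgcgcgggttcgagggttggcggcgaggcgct

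The search covered CACGTG (E-box), CACGTT (the variant E′-box), TTATGNAA (D-box), TAGGTCA and TGGGTCA (ROR elements) and TGACGT (core of the cAMP response element), each on both strands, and no matches overlapped each other. RefSeq held 15 such windows for the 10 genes, 5 of which had 2 starts. In PER1 the E-box begins 173 bases and a D-box 30 bases before the start, in BHLHE40 the E-box begins 245 bases before it, and in NR1D1 the E′-box begins 168 bases before it. CLOCK holds an E′-box 187 bases and a ROR element 217 bases before its second start. The window of its first start, which is not printed, held no match. The deposited model of CLOCK reaches into that first window, to base 55546909. The second start of NR1D2 had the most matches of the 15, with E-boxes 155 and 105 bases, a D-box 194, a ROR element 133 and a cAMP element 16 bases before it. Across the 10 genes an E-box was found in 3, in 3 of the 15 windows, against 7.26% of 35116 windows of all RefSeq genes. An E′-box was found in 5 of the 15 windows (CLOCK, CRY1, CRY2, NR1D1 and PER2), against 5.34% of all windows. D-boxes were found in 3 windows (NR1D2, PER1 and PER3), against 3.30%, the ROR element TAGGTCA in 2 (CRY2 and NFIL3), against 1.85%, and TGGGTCA in 2 (CLOCK and NR1D2), against 3.92%. The cAMP element was found in 1 window, against 7.98% of all. A match is a description of the letters in this window and not a measured binding site.

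Of the 10 clock genes, 7 rose with indomethacin, 0 fell and 3 did not pass the test. NR1D1, PER1 and NFIL3 had log2 fold changes (indomethacin over control) above 2. Without indomethacin replicate 3, those of PER1 and NFIL3 were 1.57 and 1.98. CRY2 and BHLHE40 rose 1.91-fold and 1.89-fold, NR1D2 and PER2 rose least, and PER3, CRY1 and CLOCK did not pass. Passing means a Benjamini-Hochberg adjusted p under 0.05 in edgeR's quasi-likelihood test, which held for 61.6% of all genes tested, 30.6% higher and 31.0% lower. None of the 10 was lower at an unadjusted p under 0.05 by edgeR either (0 of 10), and the share of all genes at that threshold was not computed. DESeq2 and limma-voom called 0 of the 10 lower, against 5233 and 5374 of the 17200 genes tested. The median log2 fold change was 0.79 over the 10 genes and 0.04 over all genes tested, and the median size without regard to sign was 0.79 and 0.66. A change of at least 2-fold that passed was seen in 3 of the 10 and in 33.0% of all genes tested. Indomethacin and control libraries did not overlap in 8 of the 10 genes, all higher with indomethacin, though PER3 only by a ratio of 1.01. Of all 17200 genes tested, 67.0% did not overlap, 5794 of them higher and 5736 lower with indomethacin. In counts of bulk RNA, a change of every cell and a change in the share of cells that express a gene cannot be told apart.

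**Figure D1:**
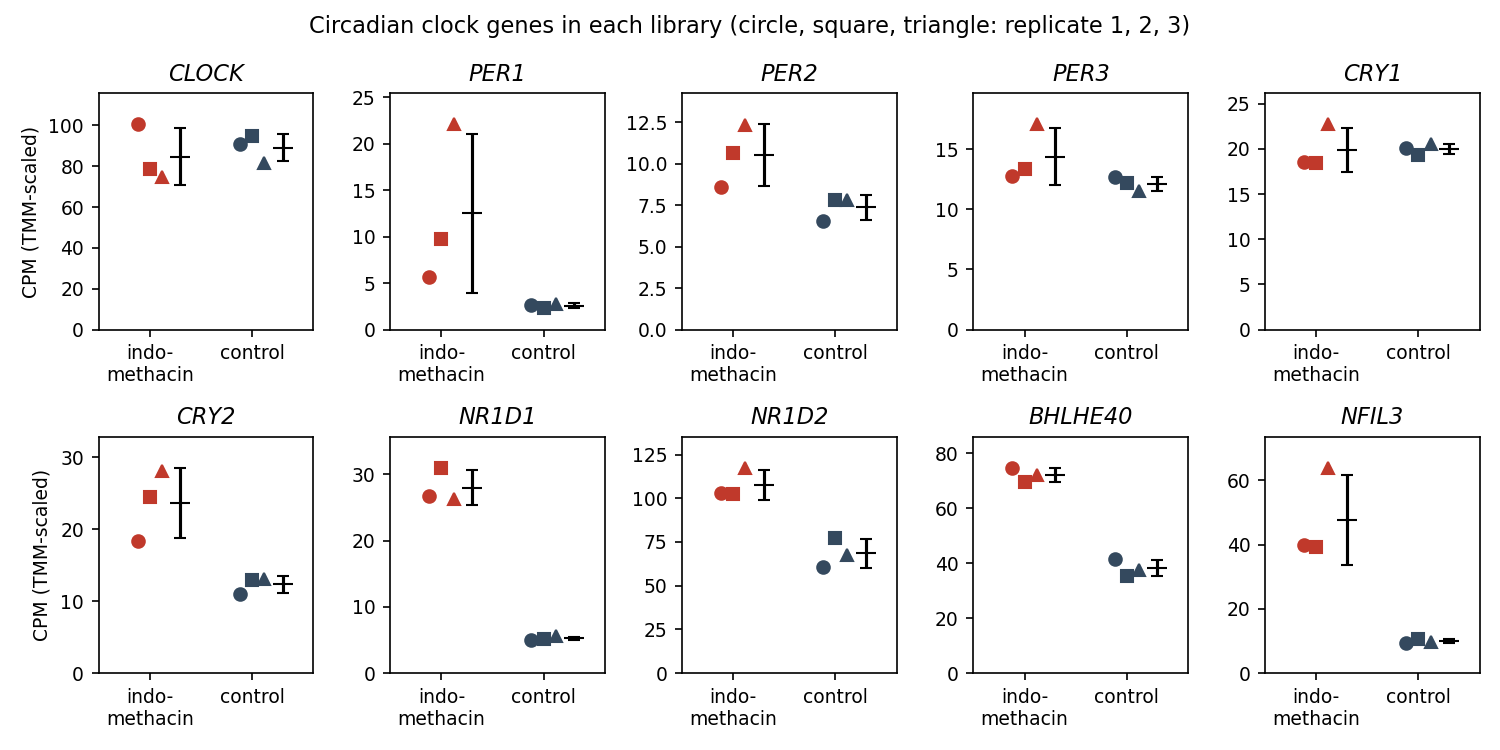
TMM-scaled CPM of each of the 10 clock genes in each library, with indomethacin left of control; symbols are libraries and black bars the mean and SD of 3. NR1D1, NFIL3, BHLHE40 and PER1 are separated between groups, while CLOCK and CRY1 overlap.

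The REV-ERB genes encode nuclear receptors that bind heme and repress BMAL1. NR1D1 (ENSG00000126368, chromosome 17, 40092793 to 40100589, minus strand, build hg38) had 26.7, 31.0 and 26.2 CPM in the indomethacin libraries, against 5.05, 5.2 and 5.54 CPM in the control libraries. The lowest indomethacin library was 4.73 times the highest control library, the widest gap among the 10 genes. Its log2 fold change was 2.41 (SE 0.14, edgeR adjusted p = 5.5e-09, n = 3 each), a 5.31-fold rise, and 7.52% of all genes tested had a larger change in either direction. The last exons of NR1D1 are known to face those of THRA, the thyroid hormone receptor gene on the opposite strand, and 473 of the 2630 exonic bases of NR1D1 overlapped it. THRA moved the other way, with 20.2, 19.7 and 17.8 CPM in the indomethacin libraries and 29.7, 32.8 and 34.0 CPM in the control libraries (log2 fold change -0.74, SE 0.12).

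NR1D2 (chromosome 3, 23945286 to 23980617, plus strand) was the more abundant receptor gene per length in both groups and had the smaller fold change. It had 103, 102 and 117 CPM in indomethacin libraries and 60.7, 77.1 and 67.6 CPM in control libraries. The groups did not overlap, and the log2 fold change was 0.65 (SE 0.11, edgeR adjusted p = 0.00022, n = 3 each). Per kb of exon, the NR1D1 count was 0.572 of the NR1D2 count in indomethacin libraries (geometric mean) and 0.171 of it in control libraries. The log2 ratio of NR1D1 over NR1D2 was -0.81 ± 0.22 in indomethacin and -2.55 ± 0.17 in control libraries (SD, n = 3), a difference of 1.74.

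The period genes encode the repressors that pair with cryptochromes, and PER1 is also known as an early response gene. PER1 (ENSG00000179094, chromosome 17, 8140472 to 8156506, minus strand) had 5.66, 9.80 and 22.1 CPM in the indomethacin libraries, against 2.65, 2.30 and 2.81 CPM in the control libraries. All indomethacin libraries lay above all controls, but replicate 3 was far above replicates 1 and 2 of its group. The log2 fold change was 2.26 (SE 0.39, edgeR adjusted p = 0.00017, n = 3 each), and it was 1.57 (edgeR adjusted p = 0.00011) without indomethacin replicate 3. Its spread within groups, 0.70 on the log2 scale, was the largest of the 10 genes, against a median of 0.21 over all genes tested.

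PER2 (chromosome 2, 238244044 to 238290102, minus strand) had 8.60, 10.6 and 12.3 CPM in indomethacin libraries and 6.52, 7.81 and 7.79 CPM in control libraries. The groups did not overlap, though the lowest indomethacin library was only 1.10 times the highest control. It rose 1.42-fold, a log2 fold change of 0.51 with an SE of 0.17 (edgeR adjusted p = 0.021, n = 3 each). Leaving out control replicate 1 ended that call (edgeR adjusted p = 0.11), as did leaving out control replicate 2 (0.053), indomethacin replicate 2 (0.056) and indomethacin replicate 3 (0.087), or testing with no filter on low counts (0.082). An unnamed gene on the opposite strand, with 54 counts over indomethacin and 17 over control libraries, overlapped 188 of its 6872 exonic bases.

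PER3 (chromosome 1, 7784291 to 7845177, plus strand) had 12.7, 13.3 and 17.1 CPM in indomethacin libraries and 12.7, 12.2 and 11.5 CPM in control libraries. The lowest indomethacin library and the highest control were nearly equal, at a ratio of 1.01. Its log2 fold change of 0.24 (SE 0.15, edgeR adjusted p = 0.17, n = 3 each) did not pass, with an interval of 2 SE from -0.05 to 0.54. The opposite-strand gene UTS2, with 14 counts in all, overlaps 868 of its 8128 exonic bases. PER3 passed with upper-quartile factors (log2 fold change 0.36, edgeR adjusted p = 0.045).

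Within the period family, PER1 gained on both relatives in every indomethacin library compared with every control. The log2 ratio of PER1 over PER2 per kb was 0.01 ± 0.74 in indomethacin libraries and -1.53 ± 0.23 in control libraries (SD, n = 3), and that of PER1 over PER3 was -0.20 ± 0.77 and -2.01 ± 0.18. For PER2 over PER3 it was -0.21 ± 0.12 in indomethacin and -0.48 ± 0.21 in control libraries, and the highest control library lay next to the lowest indomethacin one. Such a ratio is taken within a library, so the scaling between libraries cancels.

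The cryptochromes are the stronger repressors of the loop, and of the pair CRY2 rose and CRY1 did not pass. CRY2 (ENSG00000121671, chromosome 11, 45847118 to 45883248, plus strand) had 18.4, 24.5 and 28.1 CPM in indomethacin libraries, against 11.0, 12.9 and 13.1 CPM in control libraries. Each indomethacin library was at least 1.40 times the highest control, and the log2 fold change was 0.93 (SE 0.16, edgeR adjusted p = 0.00017, n = 3 each). CRY1 (ENSG00000008405, chromosome 12, 106991364 to 107093549, minus strand) had 18.5, 18.4 and 22.7 CPM in indomethacin libraries, against 20.1, 19.4 and 20.5 CPM in control libraries. These overlapped, and the log2 fold change of -0.01 (SE 0.13, edgeR adjusted p = 0.95, n = 3 each) had an interval of 2 SE from -0.26 to 0.24.

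Per kb, the CRY1 count was 1.10 times the CRY2 count in indomethacin libraries (geometric mean), against 2.1 times in control libraries. The log2 ratio of CRY1 over CRY2 was 0.39, -0.04 and 0.07 in indomethacin libraries, against 1.25, 0.96 and 1.02 in control libraries, a difference of -0.93 with no overlap. In all 5 paralog pairs compared the groups did not overlap. Among single genes, 67.0% of those tested did not overlap either, and the share over other gene pairs was not computed. The period ratios share genes and are not independent of each other. The two-sided exact permutation test gave p = 0.1 for each pair, the smallest that 3 against 3 libraries allow. It was 0.1 after adjustment over the 5 pairs. None of the pairs could therefore pass a threshold of 0.05.

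**Figure D2:**
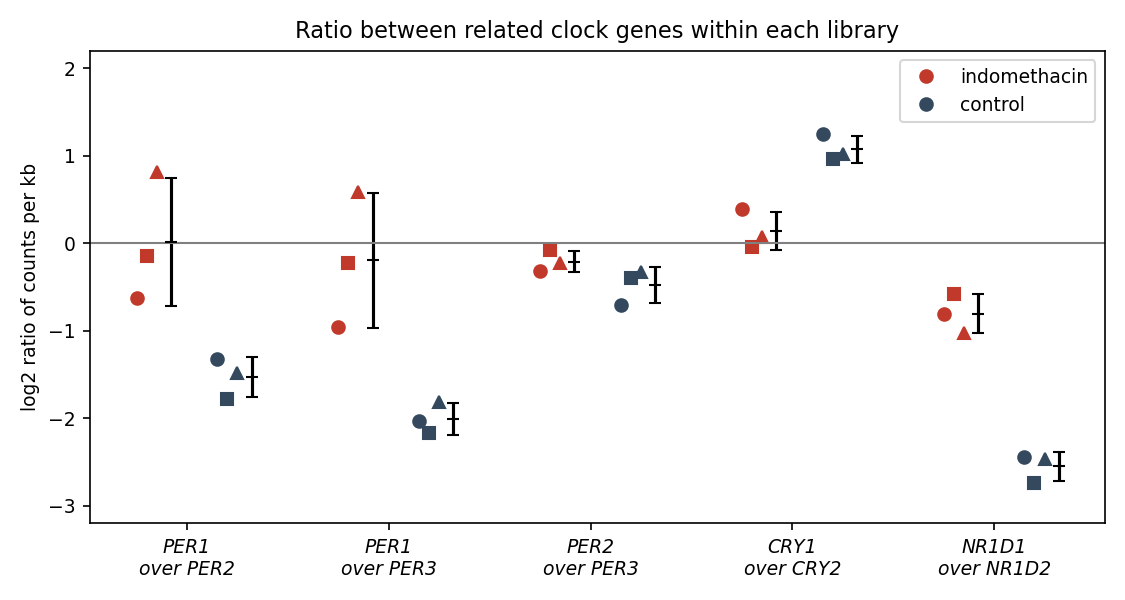
Log2 ratio of counts per kb between related clock genes within each library (circle, square and triangle are replicates 1, 2 and 3), with indomethacin left of control and black bars for mean and SD of 3. NR1D1 over NR1D2 and the PER1 ratios were higher with indomethacin, and CRY1 over CRY2 was lower.

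BHLHE40, a basic helix-loop-helix repressor also known as a target of hypoxia, and NFIL3, a basic leucine zipper repressor, both rose. BHLHE40 (ENSG00000134107, chromosome 3, 4979437 to 4985323, plus strand) had 74.6, 69.6 and 72.0 CPM in indomethacin libraries, against 41.4, 35.5 and 37.5 CPM in control libraries. The values were close within each group, and the log2 fold change was 0.92 (SE 0.10, edgeR adjusted p = 4.1e-06, n = 3 each). Its antisense gene BHLHE40-AS1 overlaps 451 of its 3516 exonic bases and had 25 counts over the indomethacin and 29 over the control libraries.

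NFIL3 (ENSG00000165030, chromosome 9, 91409045 to 91423832, minus strand) had 39.8, 39.2 and 63.9 CPM in indomethacin libraries, against 9.32, 10.7 and 9.81 CPM in control libraries. Indomethacin replicate 3 was again the highest, and the lowest indomethacin library was 3.65 times the highest control. The log2 fold change was 2.25 (SE 0.18, edgeR adjusted p = 1.4e-07, n = 3 each), and 1.98 without indomethacin replicate 3. That library had the highest CPM of its group in 7 of the 10 clock genes. The same share over all genes tested was not computed, so the count shows nothing particular to clock genes. The source of the difference between libraries was not tested.

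CLOCK (ENSG00000134852, chromosome 4, 55427903 to 55546909, minus strand), the activating subunit, had 100, 78.7 and 74.5 CPM in indomethacin libraries, against 90.9, 94.6 and 81.6 CPM in control libraries. The groups overlapped, with the highest and the lowest values both in indomethacin libraries. The log2 fold change was -0.07 (SE 0.12, edgeR adjusted p = 0.63, n = 3 each), with an interval of 2 SE from -0.32 to 0.17. Its exons overlap TMEM165 on the opposite strand over 76 of 11533 bases.

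Levels of different genes were compared per length, as TPM (counts per kb, scaled to a common total) computed from the deposited counts and gene lengths. In indomethacin libraries NFIL3 was the most abundant of the 10, at 28.4 ± 4.71 TPM, followed by BHLHE40 at 25.7 ± 3.68 and NR1D2 at 23.1 ± 1.48 TPM, and the libraries of these neighbours overlapped. NR1D1 (13.4 ± 2.29) and CLOCK (9.30 ± 2.60) followed and overlapped each other, then CRY1 (5.16 ± 0.22) and CRY2 (4.70 ± 0.51), which also overlapped, and the period genes were lowest, PER3 at 2.19 ± 0.08, PER1 at 2.11 ± 1.18 and PER2 at 1.89 ± 0.13 TPM (all SD, n = 3). In control libraries NR1D2 (16.9 ± 2.29 TPM) and BHLHE40 (15.5 ± 1.5) overlapped at the top, and CLOCK (11.1 ± 1.27), NFIL3 (6.93 ± 0.65) and CRY1 (5.98 ± 0.16) followed in separate steps. NR1D1 (2.86 ± 0.05) and CRY2 (2.84 ± 0.24) overlapped, and PER3 (2.13 ± 0.18), PER2 (1.53 ± 0.14) and PER1 (0.53 ± 0.04) closed the order without overlap. NR1D1 lay above 82.9% of the genes tested in indomethacin and above 45.0% in control libraries, NFIL3 above 92.6% and 64.3%, and PER1 above 41.0% and 17.1%.

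**Figure D3:**
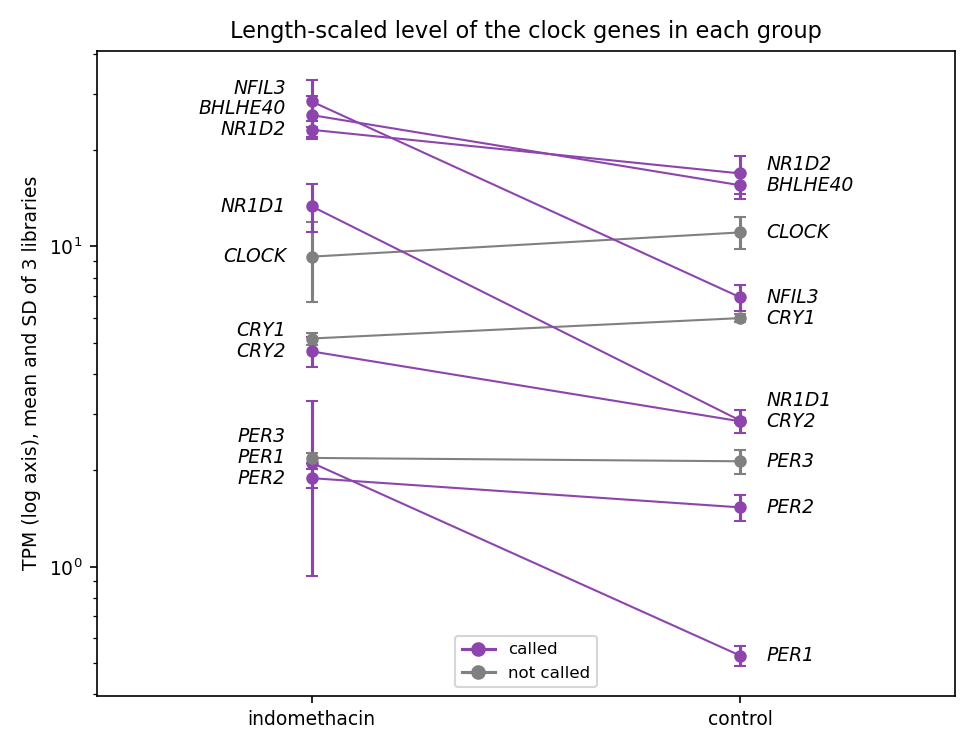
Length-scaled level (TPM, log axis) of the 10 clock genes, mean and SD of 3 libraries, indomethacin on the left and control on the right; purple genes passed edgeR's test and grey ones did not. NFIL3 heads the order in indomethacin libraries and stands below NR1D2, BHLHE40 and CLOCK in control libraries, and PER1 is lowest in control libraries.

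Of 22 other genes of the clock, 16 had enough counts to be tested, of which 6 rose, 5 fell and 5 did not pass (30.6% and 31.0% of all genes tested), with a median log2 fold change of 0.20. In the activating arm, NPAS2 and BMAL1 rose while BMAL2 fell. NPAS2, which can stand in for CLOCK, had 48.0, 62.3 and 58.6 CPM in indomethacin libraries, against 9.61, 10.8 and 11.0 CPM in control libraries, a log2 fold change of 2.42 (SE 0.13, edgeR adjusted p = 3.3e-09, n = 3 each). BMAL1, the partner of CLOCK and NPAS2, had 26.4, 27.3 and 34.1 CPM in indomethacin libraries, against 10.8, 13.6 and 10.6 CPM in control libraries (log2 fold change 1.32, SE 0.15, edgeR adjusted p = 3.4e-06). Both were higher in every indomethacin library than in any control. BMAL2, a paralog of BMAL1, had 29.9, 22.0 and 21.1 CPM in indomethacin libraries, against 65.0, 66.7 and 64.9 CPM in control libraries, and fell by 1.43 on the log2 scale (SE 0.13, edgeR adjusted p = 6.0e-07). RORA, which activates BMAL1 where the REV-ERBs repress it, was low and did not pass, at 1.79 ± 0.35 CPM in indomethacin and 1.24 ± 0.38 CPM in control libraries (SD, n = 3).

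The proline and acidic rich leucine zipper factors, output genes that NFIL3 opposes at D-boxes, were lower where they could be tested. DBP, a direct E-box target of the clock in liver and other tissues, had 7.27, 7.06 and 11.6 CPM in indomethacin libraries, against 17.5, 17.6 and 20.5 CPM in control libraries (-1.11 on the log2 scale, SE 0.18, edgeR adjusted p = 0.00013). Its exons overlap SPHK2 on the opposite strand over 661 of 6485 bases. TEF had 7.37, 9.20 and 15.0 CPM in indomethacin libraries, against 11.7, 17.5 and 20.6 CPM in control libraries. These overlapped, and its log2 fold change of -0.67 (SE 0.24, edgeR adjusted p = 0.028) missed the threshold when control replicate 2 (0.053), control replicate 3 (0.11), indomethacin replicate 1 (0.082) or indomethacin replicate 2 (0.11) was left out, and with upper-quartile factors (0.057). HLF, the remaining one, had 25 counts over the indomethacin and 30 over the control libraries.

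TIMELESS, which in mammals is best known for its role at replication forks, had 16.3, 19.3 and 29.7 CPM in indomethacin libraries, against 61.0, 59.1 and 63.1 CPM in control libraries (log2 fold change -1.49, SE 0.17, edgeR adjusted p = 5.1e-06). Among genes that modify or degrade clock proteins, the period kinases CSNK1D (log2 fold change 0.70, edgeR adjusted p = 5.5e-05) and CSNK1E (0.59, edgeR adjusted p = 0.00028) rose. CSNK1D overlaps SLC16A3 on the opposite strand over 482 of 11024 exonic bases, and CSNK1E overlaps a read-through gene on its own strand over 1316 of 7098. The ubiquitin ligase subunit FBXW11 (0.44) rose as well, and NONO, which binds period proteins, fell by 0.42. GSK3B, a kinase of several clock proteins, had a log2 fold change of -0.19 (SE 0.11) and did not pass (edgeR adjusted p = 0.17). NOCT, a rhythmic phosphatase gene of clock output, rose by 0.74 on the log2 scale (SE 0.17).

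Several clock genes were too low to be tested. CIART, a repressor of CLOCK and BMAL1, had 25 counts over the indomethacin and 4 over the control libraries, a ratio per scaled library size of 7.05 (95% counting interval 2.43 to 27.9). USP2, a deubiquitinase gene, had 10 counts over the indomethacin and 52 over the control libraries (ratio 0.217, 0.0982 to 0.431). RORB had 3 counts over the indomethacin and 0 over the control libraries. BHLHE41, the paralog of BHLHE40, and FBXL21P had 0 counts in all 6 libraries, which allows up to 0.143 to 0.180 CPM in indomethacin and 0.128 to 0.147 CPM in control libraries, the TMM-scaled level of 3 counts. These intervals and floors cover counting error only.

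**Figure D4:**
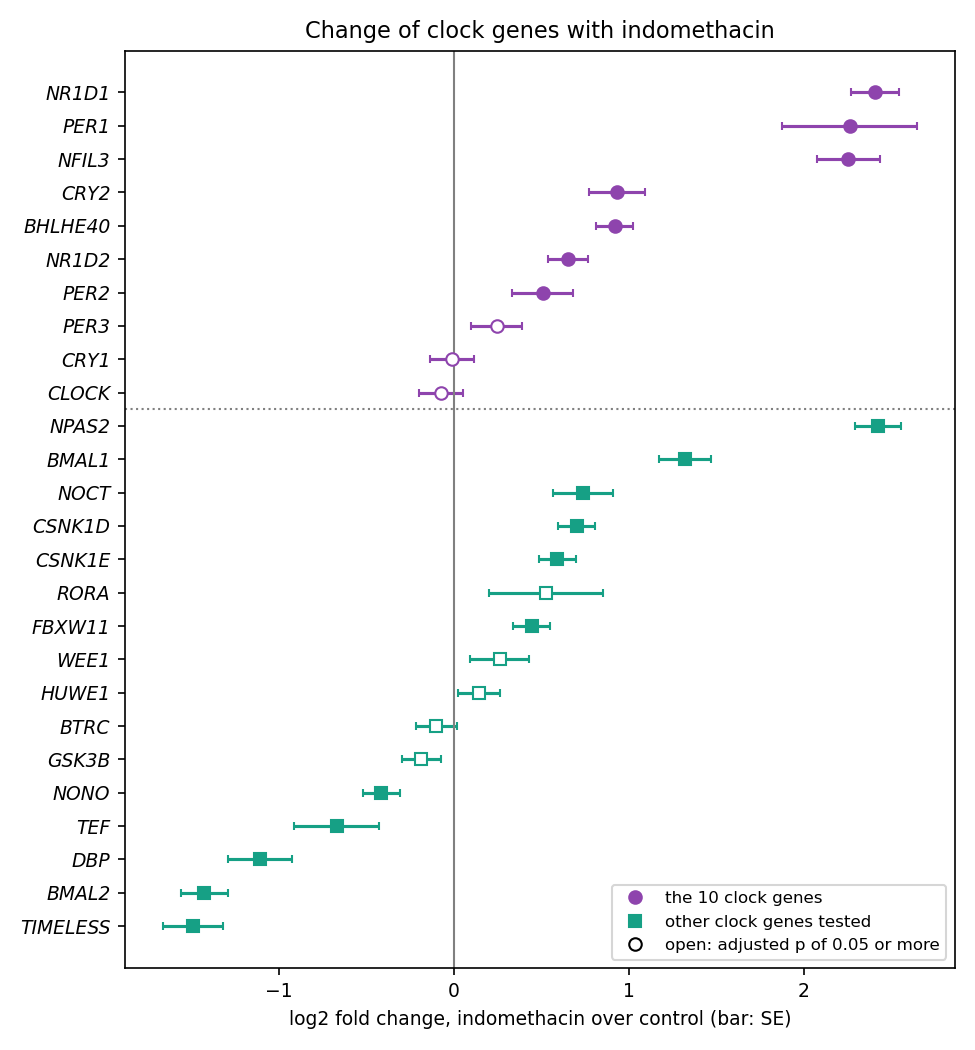
Log2 fold change (indomethacin over control) of the 10 clock genes, above the dotted line, and of the 16 other clock genes tested, below it; bars are SE and open symbols did not pass. NR1D1, PER1, NFIL3 and NPAS2 lie above 2, and TIMELESS, BMAL2 and DBP lie below -1.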

How the data were processed

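Total RNA of 6 AGS samples was sequenced after ribosomal RNA depletion with a stranded kit, per the labels' protocols. Trimming with cutadapt 1.16, alignment with HISAT2 2.1.0, counting with featureCounts and build hg38 are named, per the submitters' processing notes. The annotation release, strand setting and handling of multiply mapped reads are not given in the sources used here, so genes that overlap another gene are uncertain. The authors deposited raw counts per gene for each library, with gene lengths, and these counts were used unchanged. The 3 lines of 1 gene with a broken entry were left out of every file.

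The clock genes and gene lists were chosen with earlier results of these data known, and some genes of the list of other clock genes are not reported here. Symbols were matched by gene identifier for 60462 of 60604 genes. Genes kept by filterByExpr were scaled by TMM and tested with edgeR 4.0.16 (R 4.3.3), group being the only term, with Benjamini-Hochberg adjustment over all genes tested and a threshold of 0.05. Standard errors are those implied by the test statistic. Levels are CPM by TMM. TPM, computed from counts and lengths, depend on the whole RNA make-up. The order of genes by TPM and the share of genes below each were taken within a group. They were then set side by side for the groups, with no test. Paralog ratios used 0.5 added to each count. Named genes were the 10 clock genes, the other activating, repressing and leucine zipper genes, and the 6 remaining ones with the smallest adjusted p; THRA and the other overlapping genes, the untested USP2 and FBXL21P, WEE1 and the marker genes were added after their values were seen. Start regions came from RefSeq (GRCh38.p14), and 4 were printed: those of the highest and the lowest fold change, and 2 of the 3 with an E-box, the higher fold changes being taken since at most 4 were to be shown.

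Alternatives were DESeq2 1.42.0, limma-voom (limma 3.58.1), RLE and upper-quartile factors, library sizes that leave out mitochondrial genes and small structured RNAs, no filter, a filter of 1 CPM in 3 libraries, the replicate number as a block, and leaving out each library. The tests were also run on simulated counts in which far fewer genes changed than were called here. That run cannot show how well the scaling holds for these data. Libraries of a group differed by more than counting noise, with chi-square values of 8.06 to 26.8 per degree of freedom, so none was treated as a repeat deposit of another; this does not show that they came from separate cultures.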

Additional observations from a re-analysis of the deposited data

How the results depend on the processing

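Over 14 alternatives, between 6 and 8 of the 10 clock genes passed as higher and 0 as lower, and between 6 and 7 of the other clock genes passed as higher and 4 to 6 as lower. Of all genes, 4635 to 6124 passed as higher and 4686 to 6276 as lower, with 14519 to 39859 genes tested. The 6 clock genes NR1D1, PER1, NFIL3, CRY2, BHLHE40 and NR1D2 passed as higher in all 14. PER2 and TEF lost their calls in 5 alternatives each, as given beside their values. PER3 gained one with upper-quartile factors, which raised the log2 fold change of the median gene by 0.12, and GSK3B and WEE1 gained one in 1 alternative each. Of 364 values of single genes, 351 kept the call, or the lack of a call, that the gene had in the main test. A change of sign without a call in either was counted as kept. A call was lost in 10 and gained in 3, and 0 called values changed sign. CLOCK ranged from -0.24 to 0.04 and CRY1 from -0.12 to 0.11 without passing in any. Over all genes, upper-quartile factors gave 6124 higher and 4686 lower.

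Samples share replicate numbers but nothing in the labels pairs them. The deviations of same-numbered libraries correlated by 0.02, 0.01 and 0.13, and those of differently numbered libraries by -0.14 to 0.13. With the replicate block, 7 clock genes passed as higher and 0 as lower, 6 other clock genes as higher and 5 as lower, with 5249 genes higher and 5352 lower in all. The paralog ratio differences are by construction the same with the block, at 1.54 for PER1 over PER2, 1.81 for PER1 over PER3, 0.27 for PER2 over PER3, -0.93 for CRY1 over CRY2 and 1.74 for NR1D1 over NR1D2 (exact sign-flip p = 0.25, the smallest possible). Without 1 library in turn, the difference ranged from 0.15 to 0.34 for PER2 over PER3 and from 1.14 to 1.86 for PER1 over PER2.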

Other observations

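Per length, the pairs of activators had a different make-up in the 2 groups, a comparison chosen after the values were seen and given with no test. The TPM of NPAS2 was 0.441, 0.730 and 0.725 of that of CLOCK in the indomethacin libraries, against 0.0976, 0.106 and 0.125 of it in the control libraries. The TPM of BMAL1 was 0.887, 1.25 and 1.63 times that of BMAL2 in the indomethacin libraries, against 0.167, 0.206 and 0.164 times in the control libraries. CLOCK was above NPAS2 in all 6 libraries, while BMAL1 exceeded BMAL2 in indomethacin replicates 2 and 3.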
